A study of Mus musculus with 20 samples.

Results

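The teneurins are large single-pass transmembrane proteins, best known from neurons, where they bind each other and the latrophilin receptors across cell contacts and help growing axons find their partners. Tenm2, Tenm3 and Tenm4 are 3 of the 4 mouse family members, and all of them lie in very long genes with several alternative start sites. H3K27ac is an acetyl mark on histone H3 that is found at active promoters and at active enhancers. A peak of this mark over 1 kb from every annotated start site, called distal here, is therefore a candidate enhancer.

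The 3 genes were chosen by measured values, since Tenm4 was the nearest gene of more distal regions of e11.5 only (carried by at least 2 libraries of e11.5 and by fewer than 2 of each later stage) than any other gene. They are 3 of 21829 protein-coding genes of the GENCODE vM21 annotation. A peak was assigned to a gene when it overlapped the gene body, or when the gene had the nearest start site of a protein-coding transcript within 100 kb. Overlapping peaks of all libraries were merged into regions, of which 74 belonged to the 3 genes out of 42346 in all. Tenm4 had 46 regions, Tenm3 had 20 and Tenm2 had 8. In the count behind the choice, Tenm4 was nearest to 9 such regions, the next genes (Adamts20, Bach2, E130114P18Rik, Gse1 and Pja1) to 6 each, Tenm3 to 1 and Tenm2 to 0. With start sites of all transcripts of these genes in place of the protein-coding ones, Smyd3 had 11 and Tenm4 10. A description as genes with many early regions therefore holds for Tenm4 and not for Tenm2 or Tenm3.

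H3K27ac was profiled by ChIP-seq in dissected face tissue of wild-type (WT) mouse embryos, with mixed cell types in each library. The tissues dissected at e11.5 were the lateral and medial nasal plates and the maxillary and mandibular processes. Both later stages, e13.5 and e15.5, were represented by nose, maxillary and mandibular tissue. Each tissue had 1 library at each stage, so different tissues of a stage served as its replicates, and the 10 input samples were not analysed here. For the 3 libraries of e15.5 the tissue in the label differs from the tissue in the names of the deposited peaks (the library labelled mandibular process is named nose, that labelled maxillary process is named for the mandible, and that labelled nose for the maxilla). They are called by their labels below, and they were kept out of the comparison of nasal with jaw tissue.

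Peak yield differed strongly between libraries. The e11.5 maxillary library gave the fewest peaks, 6571, and the e13.5 nasal library the most, 25941. Distal peaks numbered 1765 to 2978 in the 4 jaw libraries of the first 2 stages, and 10231 to 13207 in both plates and the e13.5 nose. The e15.5 library labelled nose stood apart by its short peaks, with a median distal width of 414 bp against 1143 to 1732 bp in the other 9. Of 5 facial mesenchyme genes (Twist1, Prrx1, Msx1, Tfap2a and Alx4), 4 or 5 had a peak at a start site in every library. Of 6 neuron genes, 2 had one in medial nasal tissue at e11.5, 1 in lateral nasal tissue, in the e13.5 maxillary process and in the e13.5 nose, and 0 in the other 6. These were Elavl4 in all 4 and Tubb3 in medial nasal tissue, whereas Neurod1, Neurog1, Elavl3 and Stmn2 had none in any library. Epithelial genes (Epcam, Trp63, Grhl2 and Cdh1) had 2 or 3 of 4 start sites marked in both plates, the e13.5 nose and the e15.5 libraries, and 0 or 1 in the 4 jaw libraries of e11.5 and e13.5. Hand2, a gene of the mandibular mesenchyme, was marked in mandibular tissue of the first 2 stages and, at e15.5, only in the library labelled maxillary process. The other mandibular genes of the list, Dlx5 and Dlx6, were marked in those libraries too, but not in them alone. At e15.5, Dlx6 was marked only in the library labelled maxillary process, and Dlx5 also in that labelled mandibular process. Dlx5 was marked in 7 libraries and Dlx6 in 5, both including the medial nasal plate and the e13.5 nose. In bulk tissue, fewer cells of a type and less acetylation per cell cannot be told apart.

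All 3 genes were marked at a start site, and each at an internal one. The 5′-most start site was also marked at Tenm2 and Tenm3, but not at Tenm4. A peak lay within 1 kb of some start site of Tenm3 in 10 of 10 libraries, of Tenm2 in 9 and of Tenm4 in 9. Among all protein-coding genes, 13% had one in all 10 libraries. This share is not matched for the number of start sites, of which Tenm2, Tenm3 and Tenm4 have 6, 7 and 11. At Tenm2 no single start site was marked in more than 7 libraries. The library without a start-site peak at Tenm2 and Tenm4 was the e15.5 library labelled nose.

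Tenm3, a gene known for its role in wiring the visual pathway, had the steadiest mark of the family. Tenm3 lies on chr8:48227682-48843951 of mm10, on the minus strand, and spans 616 kb. The start sites of 4 coding transcripts (Tenm3-202, Tenm3-203, Tenm3-204 and Tenm3-208) lie between positions 48555313 and 48556039, within the gene. The peak there was 3664 bp wide in the mandibular process at e11.5, 3405 in the maxillary process, 4109 in the medial and 4356 in the lateral nasal plate. At e13.5 it was 3540 bp wide in the mandibular process, 3311 in the maxillary process and 4069 in the nose. At e15.5 it was 3073 bp wide in the library labelled mandibular process, 3322 in that labelled maxillary process and 3667 in that labelled nose. The range was narrow, with no stage apart from the others. Ranked by q value within its own library, the peak stood in the top 1.14% in the e13.5 nose, 1.79% and 2.57% in the medial and lateral nasal plates and 2.86% in the e11.5 mandibular process. It ranked lowest, at 43.5%, in the e15.5 library labelled nose. The 5′-most start site, that of Tenm3-207 at position 48843951, carried a peak of 1105 to 2839 bp in 6 libraries. These were both nasal plates, the e13.5 maxillary process and nose, and the e15.5 libraries labelled mandibular and maxillary process. The start sites of Tenm3-201 and Tenm3-206, at 48674684 to 48674690, which RefSeq uses for its Tenm3 promoter, had a peak in 0 of 10.

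Tenm4 is needed in mice for gastrulation and for the maturation of oligodendrocytes, and lies on chr7:96171246-96911093, on the plus strand, over 740 kb. Its most widely marked start site was that of coding transcript Tenm4-202 at position 96211671, with a peak in 9 libraries, and 5 transcripts that start at 96209663 to 96210637 had one in 8. The widest peak within 1 kb of the Tenm4-202 start site was 1905 bp wide in the e11.5 mandibular process, 932 in the maxillary process, 2245 in the medial and 5001 in the lateral nasal plate. It was 1914 bp wide in the e13.5 mandibular process, 4353 in the maxillary process and 4974 in the nose, and 4707 and 1392 bp in the e15.5 libraries labelled mandibular and maxillary process. In the e11.5 and e13.5 mandibular process and the medial nasal plate the mark there was split into separate peaks, so those widths cover only a part of it. The widths of the 3 stages overlapped. An internal start site of 2 transcripts without a coding sequence, at 96796641, carried a peak of 3322 to 5100 bp in 6 libraries, and that of Tenm4-207 at 96644172 in both plates and the e13.5 nose. The start site of Tenm4-201 at the 5′ end of the gene body had none.

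Tenm2, the longest of the 3 at 1229 kb (chr11:36006656-37235964, minus strand), is known as a latrophilin ligand at synapses. The 5′-most start sites, at 37235882 and 37235964, had a peak of 1092 to 2413 bp in 7 libraries. They were without one in the e11.5 mandibular and maxillary processes and in the e15.5 library labelled nose. An internal start site at 36677745, of the transcript Tenm2-205, which has no coding sequence, had a peak of 870 to 2189 bp in 7 libraries, including all 4 of e11.5. So the jaw libraries of e11.5 carried the internal peak alone. A start site at 36432276 was marked in the e15.5 library labelled maxillary process alone, and the coding transcripts that start at 36944166 had no peak.

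**Figure D1:**
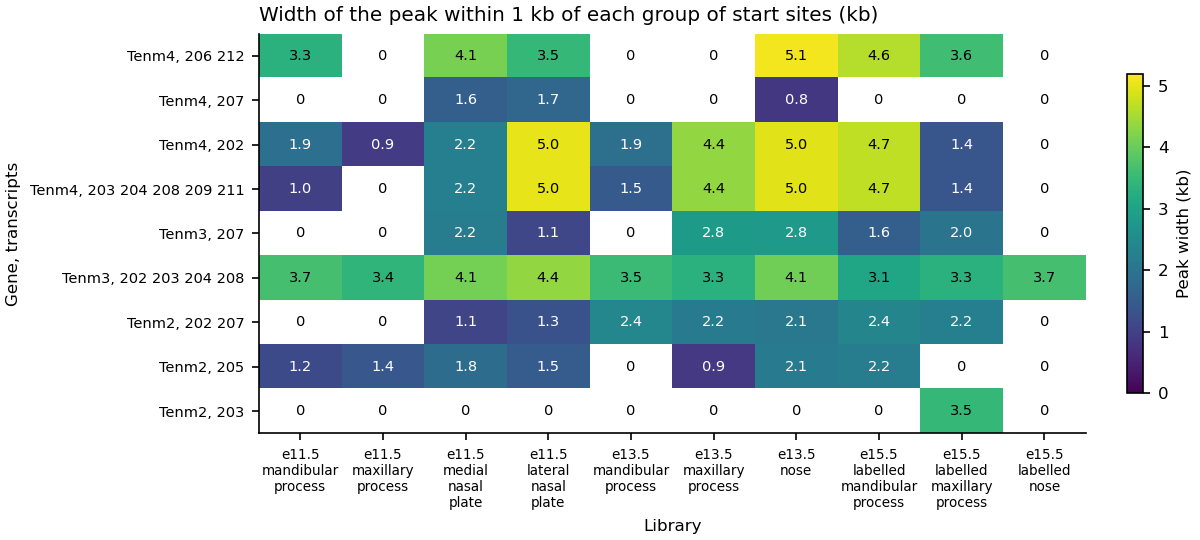
Width in kb of the widest H3K27ac peak within 1 kb of each group of annotated start sites (rows, named by gene and transcript numbers) in the 10 libraries (columns), with white for no peak. The group of Tenm3-202, 203, 204 and 208 is filled in all 10 columns, at 3073 to 4356 bp, whereas the e15.5 library labelled nose has no peak at any other group.

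The promoters are printed to show where the mark fell and where it did not. Each runs from 250 bases before to 50 after a start site, in the direction of transcription. Lower case is sequence of GRCm38 (mm10) as in RefSeq, and capitals mark matches to 6 short motifs that were searched on both strands. The motifs were TAATTA (bound by many homeodomain factors), CAGATG (an E-box), TGANTCA (AP-1), GGAATG (TEAD), ATCAAAG (TCF/LEF) and TTGGCA (bound by NFI).
Tenm3-204, chr8:48555264-48555563, minus strand, peak in 10 libraries: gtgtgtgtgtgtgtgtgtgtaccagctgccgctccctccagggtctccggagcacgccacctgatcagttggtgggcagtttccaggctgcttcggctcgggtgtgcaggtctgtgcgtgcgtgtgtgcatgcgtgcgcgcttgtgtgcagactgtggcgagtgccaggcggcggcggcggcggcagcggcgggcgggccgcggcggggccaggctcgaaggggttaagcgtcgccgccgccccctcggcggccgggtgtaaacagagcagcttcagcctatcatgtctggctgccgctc
Tenm4-202, chr7:96211421-96211720, plus strand, peak in 9 libraries: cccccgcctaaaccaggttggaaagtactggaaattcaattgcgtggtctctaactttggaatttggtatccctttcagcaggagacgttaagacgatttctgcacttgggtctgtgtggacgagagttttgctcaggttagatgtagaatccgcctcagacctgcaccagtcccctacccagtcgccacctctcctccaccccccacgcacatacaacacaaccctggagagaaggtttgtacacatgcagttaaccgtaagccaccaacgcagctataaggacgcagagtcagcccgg
Tenm2-202, chr11:37235833-37236132, minus strand, peak in 7 libraries: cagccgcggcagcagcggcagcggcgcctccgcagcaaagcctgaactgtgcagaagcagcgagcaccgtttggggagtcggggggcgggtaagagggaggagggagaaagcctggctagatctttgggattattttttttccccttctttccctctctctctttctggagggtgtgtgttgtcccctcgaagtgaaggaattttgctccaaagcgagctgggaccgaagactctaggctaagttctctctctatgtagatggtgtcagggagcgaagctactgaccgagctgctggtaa
Tenm2-201, chr11:36944117-36944416, minus strand, peak in 0 libraries: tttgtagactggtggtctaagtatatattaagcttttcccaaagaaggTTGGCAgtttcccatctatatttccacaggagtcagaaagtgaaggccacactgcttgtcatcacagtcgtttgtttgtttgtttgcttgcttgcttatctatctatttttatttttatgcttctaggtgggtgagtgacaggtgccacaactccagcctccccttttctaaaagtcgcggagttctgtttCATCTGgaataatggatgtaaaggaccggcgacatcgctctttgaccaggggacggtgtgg
The 3 marked promoters hold none of the 6 motifs, and the unmarked promoter of Tenm2-201 holds CAGATG and TTGGCA (the E-box lies on the opposite strand). Among 54355 promoters of protein-coding transcripts, CAGATG occurred in 15.01% and TTGGCA in 12.9%.

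The marked promoters were richer in CpG. The ratio of observed to expected CpG, which is high in the CpG islands of many promoters, was 0.88 for Tenm3-204, 0.65 for Tenm2-202 and 0.59 for Tenm4-202, against 0.49 for Tenm2-201. Of the 24 start sites of the 3 genes, 16 had a peak in at least 1 library, with a median ratio of 0.62, and 8 had none, with a median of 0.37. The ranges overlapped, 0.24 to 0.88 against 0.10 to 0.60. Over all protein-coding transcripts the same contrast was seen, with a median of 0.77 at start sites with a peak and 0.25 at those without, so it is not particular to the teneurins.

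Away from start sites, Tenm4 had 42 distal regions with 93 peaks over the 10 libraries, Tenm3 had 18 regions with 39 peaks, and Tenm2 had 5 with 9. The bodies of these genes are long, so the numbers were read beside those of the 230 protein-coding genes of at least 500 kb, which had a median of 4 distal regions. With 40 in its body, Tenm4 ranked 4 by number, and with 54.1 per Mb it ranked 2 by density. The 40 include early regions that led to its choice, so these ranks are a description only. Tenm3, with 18 and 29.2 per Mb, ranked 20 by number and 14 by density. Tenm2, with 5 and 4.07 per Mb, lay near the median density of 4.69 per Mb, and Tenm1, the remaining family member, had 1.

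**Figure D2:**
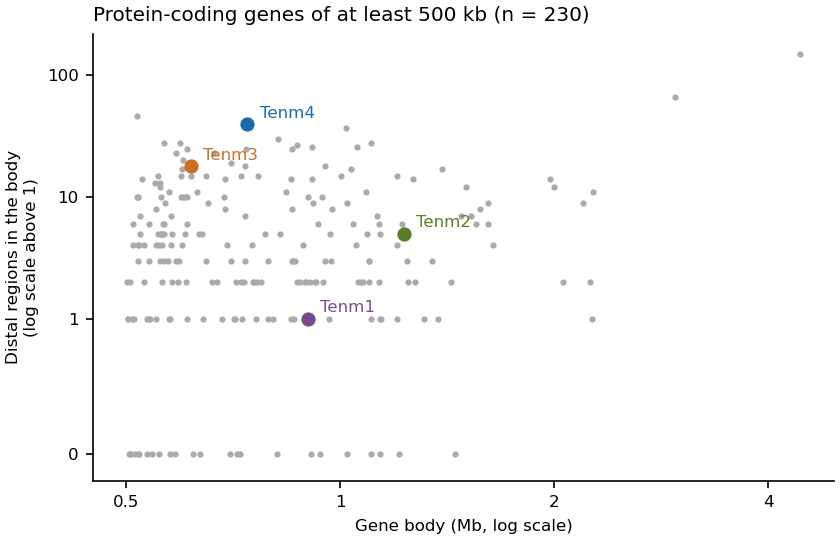
Distal H3K27ac regions in the gene body (vertical axis, log scale above 1) against the length of the body (horizontal axis, Mb, log scale) for the 230 protein-coding genes of at least 500 kb, each a grey point. Tenm4 has 40 regions, Tenm3 18, Tenm2 5 and Tenm1 1, around a median of 4.

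All distal regions of Tenm2 and Tenm3 lay in introns. Of the 42 of Tenm4, 36 lay in introns, 4 overlapped an exon and 2 lay upstream of the gene. The distal regions closest to the limit of 1 kb lay 1.39 and 1.70 kb from a start site, both at Tenm4. The regions were unevenly placed. Intron 5 of the transcript Tenm4-203 held 11 and its intron 11 held 7, while 10 regions of Tenm3 lay in intron 2 of Tenm3-201. The densest stretch of Tenm4, 101 kb long (chr7:96731644-96833034), held 14 of its 46 regions, start-site regions included. In that stretch the e13.5 nose had 10 regions, the lateral nasal plate 9, the medial nasal plate 6, the e11.5 mandibular process 4 and the maxillary process 1. The e13.5 mandibular and maxillary processes had 1 each, and the e15.5 libraries labelled mandibular process, maxillary process and nose had 4, 4 and 1.

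**Figure D3:**
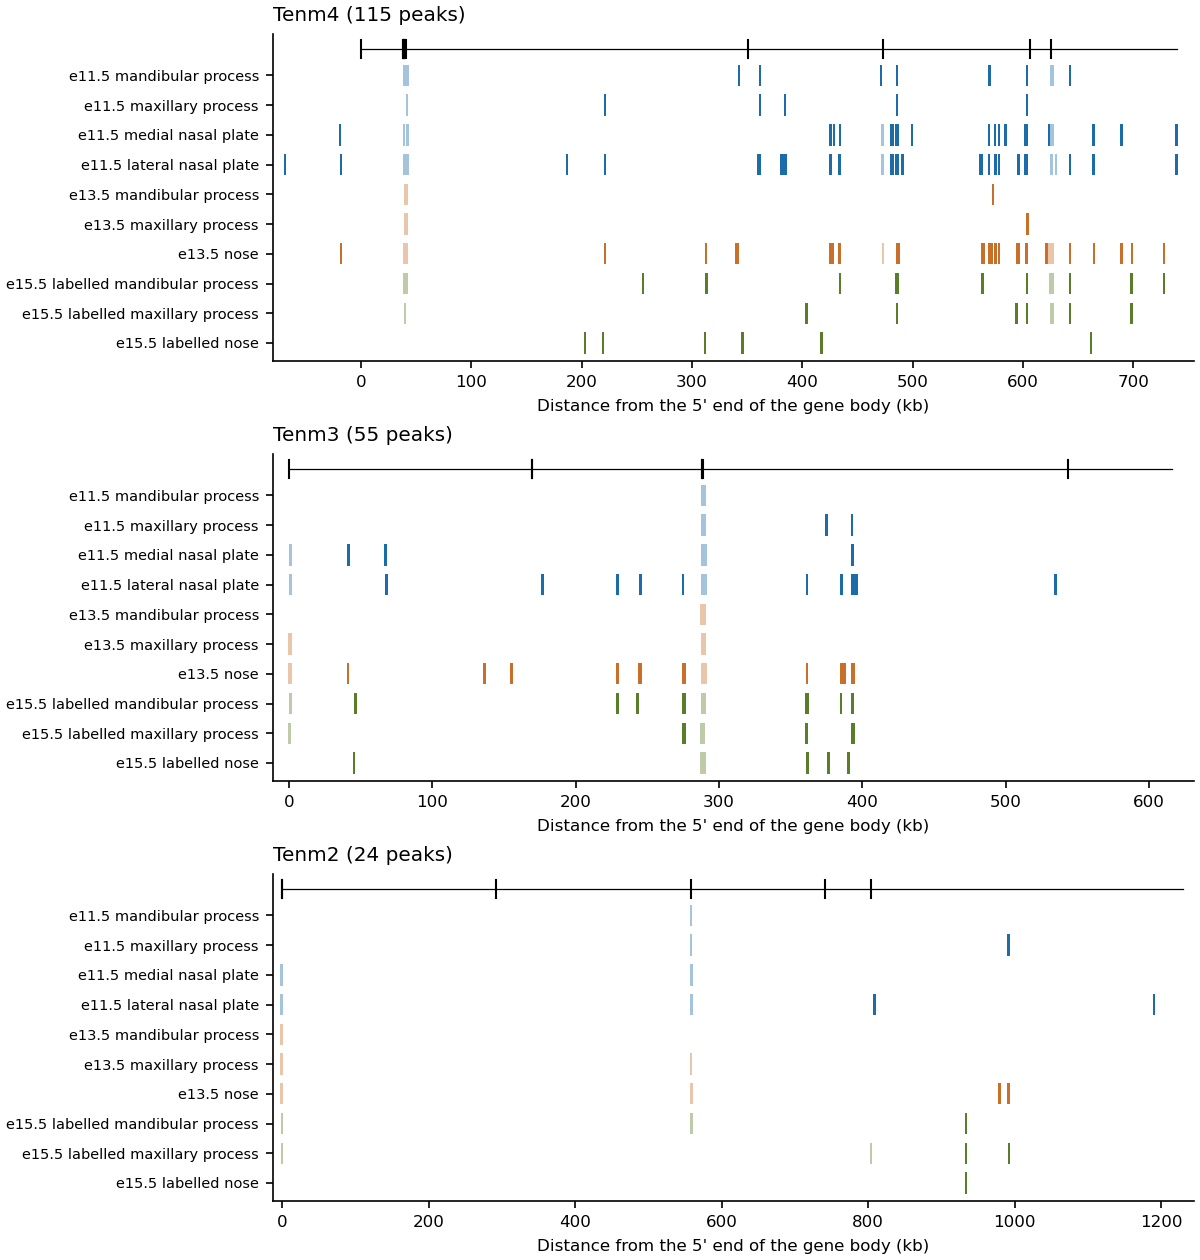
Peaks of each library (rows) by distance from the 5′ end of the gene body in kb (horizontal axis), coloured by stage and pale where within 1 kb of a start site, with black ticks for annotated start sites. Short peaks are drawn at a minimum width so that they can be seen. Tenm4 (115 peaks) is filled mainly in both plates and the e13.5 nose, Tenm3 (55 peaks) has a pale column in all 10 rows, and Tenm2 (24 peaks) has few distal peaks.

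Of the distal regions, 17 of Tenm4, 4 of Tenm3 and 1 of Tenm2 were reproducible, meaning that at least 2 libraries of a stage carried them, beside 28.2% of all 27439 distal regions. The 17 of Tenm4 include the early regions that led to its choice. Among the 17 of Tenm4, 12 fell into the class of e11.5 only, 2 into that of e15.5 only, 2 were shared by e11.5 and e15.5, and 1 by all stages. Over all 7751 reproducible distal regions, 42.6% were of e11.5 only, 22.2% of e15.5 only and 14.6% of all stages. The number of e11.5-only regions of Tenm4 chose the genes, so this share, 70.6%, is given as a description. Of the 4 of Tenm3, 1 was of e11.5 only, 2 of e15.5 only and 1 of e11.5 and e15.5, and the only reproducible region of Tenm2 was of e15.5 only. None of the 22 was reproducible at e13.5 alone, a class that held 2.74% of all.

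**Figure D4:**
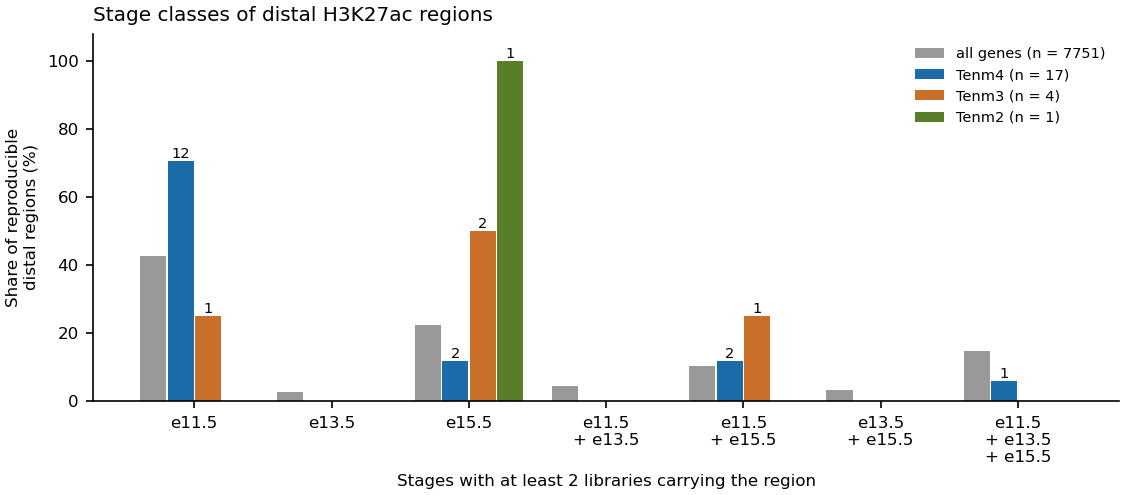
Share in percent of reproducible distal regions (vertical axis) by the stages at which at least 2 libraries carried them (horizontal axis), for all genes and for each teneurin, with the number of regions above the bars of the teneurins. The e11.5-only class holds 12 of 17 regions of Tenm4, 1 of 4 of Tenm3 and 0 of 1 of Tenm2, against 42.6% of all.

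The e11.5-only regions of Tenm4 were mostly regions of the nasal plates, as were those of all genes. Of the 12, 9 had a peak in both plates, beside 89.8% over all e11.5-only regions, and 4 had one in a jaw library of e11.5, beside 34.8%. None had a peak in the mandibular or maxillary process at e13.5, whose libraries held only 1765 and 1802 distal peaks. The share over all e11.5-only regions was not counted, so nothing is read from this. The class does not mean that the mark was gone later, since 8 of the 12 also had a peak in the e13.5 nose and 1 in an e15.5 library, and 4 had no later peak. Over all e11.5-only regions 64.2% had a peak in the e13.5 nose, beside 66.7% for Tenm4, 26.2% had one in an e15.5 library and 32.2% had no later peak. The number rests on both plates, since it is 4 without the medial and 2 without the lateral nasal plate, and 3 when each library is cut to its 6571 most significant peaks. Leaving out any other library gave 10 to 14. Both plates had 10231 and 11126 distal peaks and 2 and 3 of 4 epithelial genes marked, against 2149 and 2978 distal peaks and 0 of 4 in the jaw libraries of that stage, and the part of these differences was not tested.

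The widest e11.5-only region of Tenm4, at chr7:96550899-96557116, covers 6218 bp and overlaps exons. It was a single peak of 6218 bp in the lateral nasal plate, with a peak of 536 bp in the e11.5 maxillary process, and had none in the other 8 libraries. The next, at chr7:96650490-96654226 in intron 5 of Tenm4-203, measured 3639 bp in the medial and 3737 bp in the lateral nasal plate and had no peak elsewhere. The third, at chr7:96909039-96912192, lies over the 3′ end of the gene and was likewise found in both plates only. The best-ranked of the 12, at chr7:96748528-96750745 in intron 11, was in the top 33.4% of the lateral nasal plate and measured 2218 bp in the medial plate, 1960 in the lateral plate and 2016 in the e13.5 nose. The ranks of the 12 in their best library ran from 33.4% to 72.5%, so none was among the strongest peaks of a library.

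Among the regions shared across tissues and stages, 2 ranked higher. The region at chr7:96654891-96659458, also in intron 5 and reproducible at e11.5 and e15.5, stood in the top 12.7% of the lateral nasal plate with a fold enrichment of 6.09 over background. Its width was 2247 bp in the e11.5 mandibular process, 1677 in the maxillary process, 3642 in the medial and 4046 in the lateral nasal plate, 3350 in the e13.5 nose, and 3900 and 2039 bp in the e15.5 libraries labelled mandibular and maxillary process. It had no peak in the e13.5 mandibular and maxillary processes nor in the e15.5 library labelled nose. The only region of all stages, at chr7:96772199-96776237, overlaps exons, stood in the top 20.7% of the medial nasal plate and was found in 8 libraries. It lies 1.70 kb from a start site, so with a limit of 2.5 kb it was not distal and no distal region of Tenm4 was of all stages. It measured 2258, 2495, 3412 and 3607 bp in mandibular, maxillary, medial nasal and lateral nasal tissue at e11.5. It measured 458 bp in the maxillary process and 2348 bp in the nose at e13.5, and 1045 and 1308 bp in the e15.5 libraries labelled mandibular and maxillary process. The widths were thus higher in all 4 libraries of e11.5 than in 3 of the 4 later libraries that carried it. The other region of e11.5 and e15.5 lies at chr7:96812940-96814958, and those of e15.5 only at chr7:96482736-96485785 and chr7:96868827-96870594.

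Tenm3 had 1 region of e11.5 only, at chr8:48775440-48777744, which was found in both plates and nowhere else, and lies in the first intron of Tenm3-207. Its regions of e15.5 only, at chr8:48481346-48483835 and chr8:48567144-48570141, also had a peak in the lateral nasal plate and the e13.5 nose, 5 and 4 libraries in all. The region at chr8:48448825-48452195, reproducible at e11.5 and e15.5, was in 6 libraries. At Tenm2 the single reproducible region, at chr11:36301577-36303370, was in the 3 libraries of e15.5 and in no other.

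The central 300 bases of the widest e11.5-only regions and of the all-stages region are printed on the plus strand of mm10. A centre need not lie in every peak of its region. That of the Tenm4 e11.5-only region lies in the lateral nasal plate peak and outside the maxillary peak. That of the all-stages region lies outside the peaks of the e13.5 maxillary process and of the e15.5 library labelled mandibular process. Only its last bases lie in the peak of the e15.5 library labelled maxillary process. Capitals again mark matches to the 6 motifs.
Tenm4, e11.5 only, chr7:96553858-96554157: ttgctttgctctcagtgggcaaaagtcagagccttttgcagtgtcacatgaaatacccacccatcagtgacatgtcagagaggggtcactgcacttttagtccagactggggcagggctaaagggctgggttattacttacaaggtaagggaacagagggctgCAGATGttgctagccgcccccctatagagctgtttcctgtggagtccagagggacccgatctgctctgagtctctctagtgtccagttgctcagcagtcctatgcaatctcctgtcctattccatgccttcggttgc
Tenm4, all stages, chr7:96774068-96774367: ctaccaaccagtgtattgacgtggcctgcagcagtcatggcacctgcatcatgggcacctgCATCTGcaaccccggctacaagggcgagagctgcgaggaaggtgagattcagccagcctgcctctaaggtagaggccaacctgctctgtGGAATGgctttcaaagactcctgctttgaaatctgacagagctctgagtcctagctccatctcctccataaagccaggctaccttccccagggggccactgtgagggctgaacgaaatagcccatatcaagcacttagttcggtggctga
Tenm3, e11.5 only, chr8:48776442-48776741: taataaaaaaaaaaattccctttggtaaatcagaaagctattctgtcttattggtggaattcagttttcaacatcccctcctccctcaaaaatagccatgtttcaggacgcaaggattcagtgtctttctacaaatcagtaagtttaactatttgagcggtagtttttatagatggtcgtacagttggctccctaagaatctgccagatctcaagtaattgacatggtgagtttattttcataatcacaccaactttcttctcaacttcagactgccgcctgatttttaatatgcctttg
The e11.5-only centre of Tenm4 holds 1 CAGATG, the all-stages centre 1 CAGATG and 1 GGAATG, and the centre of Tenm3 none of the 6.

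Over whole sets, motif shares differed from those of all regions in both directions, on few regions each. In the central 300 bases, CAGATG occurred in 26.2% of the 42 distal regions of Tenm4 and in 25.6% of all 27439, GGAATG in 26.2% against 18.97%, TTGGCA in 21.4% against 17.8% and TAATTA in 7.14% against 7.36%. TGANTCA occurred in 4.76% against 9.67% and ATCAAAG in 11.9% against 4.82%. The last 2 stand for 2 and 5 regions of 42. Of the 18 regions of Tenm3, 0 held TTGGCA and 3 held ATCAAAG (16.7%), and of the 5 of Tenm2, 1 and 0 did. In the centres of the 12 e11.5-only regions of Tenm4, TTGGCA occurred in 4 (33.3%), beside 15.04% of all e11.5-only regions. CAGATG went the other way, in 2 (16.7%) beside 29.3%. Over their length the 12 had 0.567 TTGGCA, 0.90 CAGATG and 0.30 TAATTA per kb, beside 0.569, 0.99 and 0.29 for all of that class. Their median GC content was 47.0%, beside 46.5% for the same class over all genes. The regions of Tenm3 had a median of 43.5% and those of Tenm2 48.98%. A match is a description of the letters and not evidence that a factor binds.

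To set libraries of unequal yield side by side, the distal peaks of each gene were expressed as a share of all distal peaks of the library, with an exact Clopper-Pearson interval of 95% that covers counting error only. For Tenm4 at e11.5 the share was 0.235% (0.0946 to 0.484) in the mandibular process with 7 peaks, 0.233% (0.0756 to 0.542) in the maxillary process with 5, 0.156% (0.0894 to 0.254) in the medial nasal plate with 16, and 0.180% (0.110 to 0.277) in the lateral nasal plate with 20. At e13.5 it was 0.0567% (0.00143 to 0.315) in the mandibular process and 0.0555% (0.00140 to 0.309) in the maxillary process, with 1 peak each, and 0.167% (0.104 to 0.252) in the nose with 22. At e15.5 it was 0.103% (0.0473 to 0.196), 0.0890% (0.0327 to 0.194) and 0.215% (0.0790 to 0.467) in the libraries labelled mandibular process, maxillary process and nose, with 9, 6 and 6 peaks. All 4 libraries of e11.5 thus lay above 4 of the 6 later ones, but overlapped the e13.5 nose and the e15.5 library labelled nose, and all 10 intervals share a common range.

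The mean share was 0.201% ± 0.0392 (SD, n = 4) at e11.5, 0.0929% ± 0.0638 (SD, n = 3) at e13.5 and 0.136% ± 0.0690 (SD, n = 3) at e15.5. No test was made, since the regions of e11.5 chose the gene. The 6 distal peaks of the e15.5 library labelled nose had a median width of 283.5 bp, against 828 to 2068.5 bp in the e11.5 libraries, the e13.5 nose and the remaining e15.5 libraries. The single distal peaks of the e13.5 mandibular and maxillary processes were 251 and 458 bp wide. Of the 6 peaks of that e15.5 library, 5 lay in regions that no other library carried. Over all genes 58.8% of distal regions had a peak in 1 library, and 21 of the 42 of Tenm4 did.

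Distal peaks of Tenm3 were absent from the mandibular process at e11.5 and from the mandibular and maxillary processes at e13.5. A count of 0, taken as under 3 peaks, there allows a share of up to 0.101%, 0.170% and 0.166%. The first limit lies above the shares of 6 of the 7 other libraries and below that of the e15.5 library labelled nose. The limits of e13.5 lie above the shares of all 7. A count of 0 there therefore does not exclude shares of that size. The share was 0.0931% (2 peaks) in the e11.5 maxillary process, 0.0293% (3 peaks) in the medial and 0.0899% (10 peaks) in the lateral nasal plate, and 0.0681% (9 peaks) in the e13.5 nose. At e15.5 it was 0.0805% (7 peaks), 0.0594% (4 peaks) and 0.143% (4 peaks) in the libraries labelled mandibular process, maxillary process and nose. The stages overlapped, and the 7 libraries with such peaks include all 3 of e15.5.

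Distal peaks of Tenm2 numbered 0 to 2 per library. Shares above 0 were 0.0465% (1 peak) in the e11.5 maxillary process, 0.0180% (2 peaks) in the lateral nasal plate, 0.0151% (2 peaks) in the e13.5 nose, and 0.0115%, 0.0297% and 0.0358% (1, 2 and 1 peaks) in the e15.5 libraries labelled mandibular process, maxillary process and nose. Each of these rests on so few peaks that no order can be read among them.

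**Figure D5:**
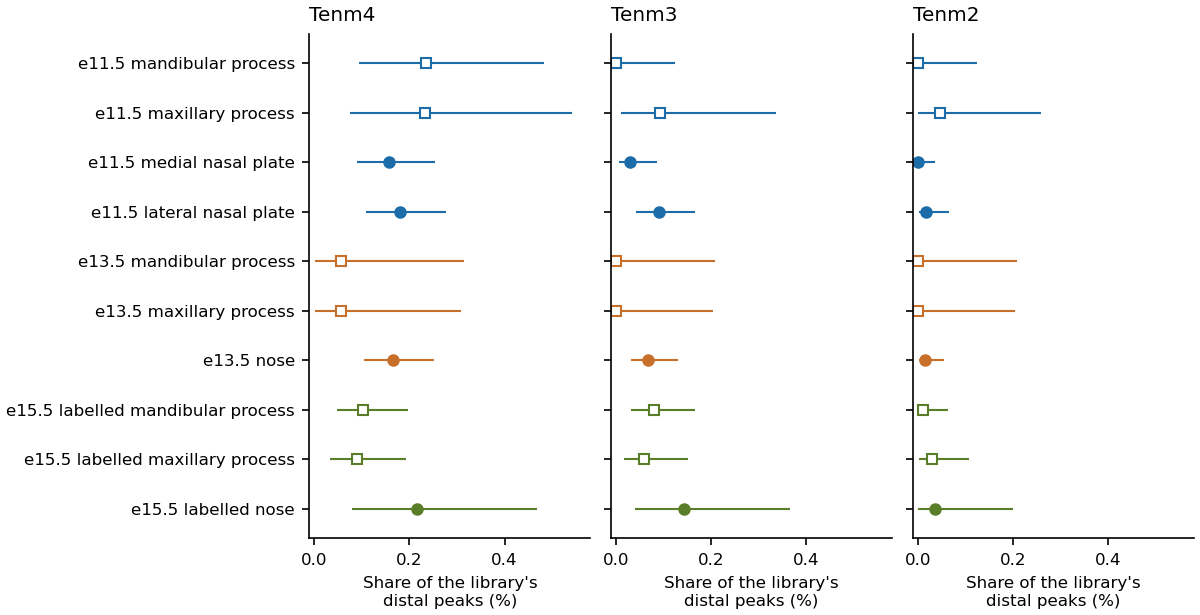
Distal peaks of each gene as a percent of the library's distal peaks (horizontal axis) in the 10 libraries (rows), coloured by stage, with filled circles for nasal tissues and open squares for jaw tissues as labelled, and bars for the exact 95% interval. Tenm4 ranges from 0.0555% to 0.235%, and its intervals overlap across stages.

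Whether the teneurins were marked more in nasal than in jaw tissue was tested for Tenm2 and Tenm3 over the 7 libraries that preceded e15.5. An exact two-sided permutation test over all 35 assignments was used, whose smallest p is 0.0286. For Tenm3 the mean was 0.0624% ± 0.0307 (SD, n = 3) in nasal and 0.0233% ± 0.0465 (SD, n = 4) in jaw libraries, a difference of 0.0392 percentage points (exact permutation p = 0.229, 0.457 adjusted over the 2 genes). The measured share in 3 of 3 nasal libraries was above that of 3 of 4 jaw libraries, but those 3 had counts of 0. As said above, such counts do not exclude shares of the size seen in the nasal libraries. The maxillary process at e11.5 was the highest of all 7. The result depends on the measure. In base pairs of distal peaks the difference was 0.0578 points (exact permutation p = 0.0286, the smallest possible, not adjusted). There the lowest nasal share, 0.0324% in the medial nasal plate, barely exceeded the highest jaw share, 0.0321% in the e11.5 maxillary process. The other jaw libraries were at 0. At equal yield the difference turned to -0.0233 points. The only distal peaks of Tenm3 then left in these 7 libraries were 2 in the e11.5 maxillary process. For Tenm2 the difference was -0.000594 points (exact permutation p = 1). Yield moves with this comparison, at 10231 to 13207 distal peaks in the nasal and 1765 to 2978 in the jaw libraries, and its part was not tested beyond the equal-yield value.

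For Tenm4 the mean share was 0.168% ± 0.0117 (SD, n = 3) in nasal and 0.145% ± 0.103 (SD, n = 4) in jaw libraries, with the nasal range inside the jaw range. Of the 635 genes with at least 20 distal peaks, 6.46% had every nasal share above every jaw share and 23.3% had every nasal share below, and neither held for Tenm3 or Tenm4 (Tenm2, with 9 peaks, was not among the 635). Regions with a peak in both plates and the e13.5 nose and in none of the 4 jaw libraries numbered 6 of 42 for Tenm4 and 0 for Tenm2 and Tenm3, against 6.35% of all distal regions. All 6 are e11.5-only regions, the class that chose the gene, so nothing is read from this number.

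The genes whose share of distal peaks followed each teneurin most closely over the 10 libraries, among 633 other genes with at least 20 distal peaks, are given as a description. For Tenm4 they were Ica1 (Pearson r = 0.94), Scml4 (0.91) and Rora (0.90, a nuclear receptor). For Tenm3 they were Sik3 (0.91, a kinase), Thsd4 (0.86) and Zfpm1 (0.86, a GATA cofactor), and for Tenm2 Agbl4 (0.82), Cdk14 (0.82, a kinase) and Sipa1l1 (0.80). These genes had 20 to 36 distal peaks in all, and the points share library yield.

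Among 11 genes of the same adhesion system, the teneurin Tenm1, the latrophilins Adgrl1 to Adgrl3, the Flrt proteins that bind them and the Unc5 netrin receptors that bind Flrt proteins, 10 had at least 1 distal region. They had 36 in all with a median of 3 per gene, against 0 over all protein-coding genes. Of the 36, 8 were reproducible, beside 28.2% of all, and 5 of the 8 were of e11.5 only, beside 42.6% of all. The e11.5-only regions were 2 at Adgrl1 and 1 each at Adgrl2, Flrt1 and Unc5b. Adgrl2 had 10 distal regions and Flrt2 had 0, yet both were marked at a start site in all 10 libraries, as were Adgrl3 in 9, Adgrl1 and Flrt3 in 8, Unc5c in 6 and Unc5b in 4. Tenm1, Flrt1, Unc5a and Unc5d were marked at no start site in any library. These numbers are not corrected for length, and neither is the median of all protein-coding genes. Adgrl2 spans 175 kb, Adgrl1 41.9 kb and Flrt1 13.7 kb, against 740 kb for Tenm4. Tenm1 at 901 kb and Adgrl3 at 805 kb are longer than Tenm4, with 1 distal region each.

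Inside the gene bodies, 15 other genes are annotated, among them the microRNA genes Mir708 and Mir6394 in Tenm4. A peak within 1 kb of a start site was found for Gm15413, an antisense transcript in the dense stretch of Tenm4, in the lateral nasal plate only. A histone mark carries no strand, so acetylation there cannot be assigned to either gene.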

How the data were processed

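ChIP-seq of H3K27ac from 10 libraries of mouse face tissue was used as deposited broad peak lists. Per the labels and the submitters' processing notes, the tools were BWA 0.7.7, SAMtools 0.1.19 and MACS2 2.2.4 with the mm10 genome. In the deposited lists, the authors' fold enrichment (a ratio), −log10 p-value and −log10 q-value (at least 1.30) and the score were given per peak, and the score was the −log10 q-value times 10, rounded down. Reads per library are not given in the sources used here, so peak number was the only measure of depth.

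Of 144896 peaks, the 144852 on assembled chromosomes were retained, merged where they overlapped or touched into 42346 regions, and annotated with GENCODE vM21. A region was distal over 1 kb from every start site (27439), and present in a library at 1 bp of overlap. A peak belonged to a gene by overlap with the body, or where the closest start site of a coding transcript was its own and at most 100 kb away. Merging, distances and tests were checked on simulated data. Values were computed in Python 3.11.15 with numpy 2.4.6, pandas 2.3.3 and scipy 1.17.1. Exact permutation tests over samples were used, with adjustment over the 2 genes tested. Named genes were the members, 11 partner genes, the 3 most similar genes per member, genes inside the bodies and the 3 widest regions per stage class. The members, lists, tests and motifs were chosen with earlier results of these data known. Marker lists are those given with their values in the report, together with skeletal muscle (Myod1, Myf5, Myog; 0 or 1 of 3 marked per library), endothelium (Cdh5, Pecam1, Tie1; 0 or 1 of 3), blood (Hbb-bt, Gata1, Tal1; 0 or 1 of 3), mandibular (Hand2, Dlx5, Dlx6; 0 to 3 of 3) and frontonasal genes (Alx1, Pax7; 0 to 2 of 2). Other genes of the marker lists are not reported here. Replicates were different tissues of a stage, so p-values measure the spread between tissues.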

Additional observations from a re-analysis of the deposited data

Results flagged for a closer look

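Among the 4 jaw libraries of the first 2 stages, the e11.5 maxillary process lay far from the others in its share of distal peaks for Tenm2 (0.0465%, 1 peak) and for Tenm3 (0.0931%, 2 peaks), the other 3 being at 0 for both genes. With 3 of 4 libraries at 0, a single peak in any library gives such a gap, so the chance of about 1 in 20 groups behind this comparison does not apply here.

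For Tenm4 the nasal minus jaw difference in that share was -0.0658 percentage points at e11.5, where both plates lay below both jaw tissues, and 0.111 points at e13.5, where the nose lay above both jaw tissues. At e13.5 both jaw libraries held only 1 distal peak each. In base pairs of distal peaks, the e11.5 shares were 0.147% in the mandibular and 0.218% in the maxillary process. They were 0.210% in the medial and 0.321% in the lateral nasal plate, so by that measure the plates did not lie below both jaw tissues. The difference between the stages was not tested.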

How the results depend on the processing

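No paired analysis was possible because the replicate numbers follow accession order and pair no samples. With stage as a block, an alternative chosen after the data were seen, the nasal minus jaw difference was 0.000432 points for Tenm2 (exact permutation p = 1), 0.0406 for Tenm3 (exact permutation p = 0.278) and 0.0224 for Tenm4, with a smallest possible p of 0.0556 over 18 assignments. The cause of the shifts below was not tested, except that stricter settings hold fewer peaks by construction. With −log10 q of at least 2, the peaks of Tenm2, Tenm3 and Tenm4 numbered 14, 27 and 63, reproducible distal regions 0, 1 and 9, and regions of e11.5 only 0 for Tenm3 and 7 for Tenm4, and the Tenm3 nasal minus jaw difference became 0.0418 points (exact permutation p = 0.0286). At equal yield the peaks numbered 8, 19 and 31, the reproducible regions 0, 0 and 3, and the regions of e11.5 only 0 for Tenm3 and 3 for Tenm4, and the differences of Tenm3 and Tenm4 were -0.0233 and -0.00552 points. With the nearest start site only, Tenm2 had 7 peaks and 0 reproducible regions. With 1 library per stage the reproducible regions were 5, 18 and 42, and those of e11.5 only 2 for Tenm2 and 5 for Tenm3. In base pairs the differences were 0.00217 points for Tenm2, 0.0578 for Tenm3 and 0.138 for Tenm4. With the e15.5 libraries added as labelled that of Tenm2 was 0.00262 points. Leaving out each library in turn, regions of e11.5 only ranged from 0 to 2 for Tenm3 and from 2 to 14 for Tenm4, reproducible regions of Tenm4 from 7 to 17, and the difference from -0.00447 to 0.0110 points for Tenm2, from 0.0255 to 0.0624 for Tenm3 and from -0.00722 to 0.0526 for Tenm4. For Tenm2 the sign turned without the e11.5 maxillary process (0.0110) or the medial nasal plate (0.00493), and for Tenm4 without the e13.5 mandibular (-0.00683) or maxillary process (-0.00722). With a limit of 2.5 kb for distal regions, 16 of Tenm4 were reproducible. Of all alternative values, 164 kept their side of the threshold or stayed within 1.5 times (counts) or 1 SD (the untested difference of Tenm4, with its 3 sign changes), 32 moved further, 2 passed the threshold, and 6 tested differences changed sign, 5 for Tenm2 and 1 for Tenm3. The threshold was an exact p of 0.05 without adjustment over the 2 genes. The 2 that passed it were those of Tenm3 in base pairs and with −log10 q of at least 2, so they are not set against the adjusted value. Start sites of all transcripts of protein-coding genes, an alternative chosen after the data were seen, gave 10 e11.5-only regions nearest to Tenm4 and 11 nearest to Smyd3. Peak yield limits what can be seen in the jaw libraries of e11.5 and e13.5.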
